A study of Mus musculus with 18 samples.

Results

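The genes described here encode the enzymes that carry pyruvate into the tricarboxylic acid cycle and the isocitrate and malate dehydrogenases around it: Pdha1, Pdhb, Dld, Cs, Idh2, Idh3a, Idh3b, Idh3g, Mdh1 and Mdh2. They were chosen by name, as probes whose single annotated gene symbol was in this list, and all 10 were found among 7117 single gene symbols on the array. They were represented by 18 probes. Probes were kept if 15 or more of the 18 arrays, and each of the 9 groups, gave them a value; 14 of the 18 passed, and every gene kept at least 1.

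The tissue was whole kidney of CD1 mice, an outbred stock, housed from postnatal day 2 for 1, 2 or 4 weeks under normoxia, under constant hypoxia at 11% oxygen, or under intermittent hypoxia in which oxygen moved between 21% and 11% every 4 min. Each combination of condition and duration had 2 cDNA arrays, A and B, and each array compared, in separate colours, kidney cDNA of 1 animal labelled male (Cy5) with that of 1 animal labelled female (Cy3) from the same group. The dyes were not swapped. The measurement is therefore a log2 ratio between animals of the same group, and a response that was equal in both animals cancels in it. In whole kidney, fewer cells of a type and less RNA per cell cannot be told apart. Which channel is the numerator is not stated in the sources used here, so a sign says only on which side of the array median a gene lay. Per the labels the arrays of a group used different animals, so the spread between arrays includes biological variation.

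Constant hypoxia arrays had values for 81.8% to 88.8% of their probes, and the others for 41% to 67.9%. The medians of the deposited ratios ran from -1.17 to -0.15 on the constant hypoxia arrays and from -0.07 to 0.09 on all others. Within constant hypoxia they were -0.15 and -0.23 at 2 weeks, and between -1.17 and -0.97 at 1 and 4 weeks. The median of an array's 5751 tested features was subtracted from its values, and every ratio below is such a centred log2 ratio unless stated otherwise. Since all constant hypoxia arrays and no others had more values and lower medians, the effect of constant hypoxia and that of this form cannot be told apart. The medians also differ between the durations of constant hypoxia, so the same limit holds for its 2-week arrays against the others. The spread of ratios across features was widest on array A of constant hypoxia at 4 weeks and on array B of intermittent hypoxia at 2 weeks (SD 0.89 and 0.68, against 0.24 to 0.46 on the other arrays), and normoxia 2 weeks B was least like the rest (r = 0.10 across features with the mean of the other arrays, against 0.22 to 0.72). The comparisons between conditions, and the single genes that these 3 arrays move most, are also given without them. The Y-linked gene Eif2s3y, which should keep 1 sign if the animals were as labelled, ranged from -2.16 to 1.64, positive on 11 arrays and negative on 7. Of 5 genes listed to check the sex labels only Eif2s3y was measured. Its mean over the 3 durations was 0.10 in normoxia, 0.49 in constant hypoxia and -0.92 in intermittent hypoxia. The sexes compared, or the orientation of the ratios, may therefore differ between conditions. This bears on every difference between conditions below and was not tested. Labels within an array disagreed on its duration for intermittent hypoxia 2 weeks A, where 1 animal carries a 1-week name, and for constant hypoxia 4 weeks A, where 1 channel's treatment gives 2 weeks; both were placed by title. Ratios hold no expression level, so the kidney label could not be checked against marker levels. Of 9 proximal tubule markers 3 were measured (Lrp2, Miox and Gatm), of 7 erythroid markers 2, of 4 adrenal cortex markers 1, of 5 immune markers 2, and of 5 brown fat markers 0.

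As background, pyruvate made by glycolysis enters the mitochondrial matrix and is oxidised to acetyl-CoA by the pyruvate dehydrogenase complex. Citrate synthase joins acetyl-CoA to oxaloacetate, isocitrate dehydrogenases carry out an oxidative decarboxylation further on, and malate dehydrogenase regenerates oxaloacetate. Kidney tubules, the proximal tubule above all, depend on mitochondrial oxidation to drive reabsorption. Under low oxygen the hypoxia-inducible factor HIF is known to limit pyruvate entry through the kinase Pdk1, which inactivates the complex by phosphorylating the subunit encoded by Pdha1.

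The windows upstream of the gene starts were read from the RefSeq promoter table (build GRCm38.p6), which held 9 of the 10 genes; Idh3a had no entry. The 2 windows below are shown because Cs was the only member to pass a test in any comparison and because the probes of Idh3g followed each other most closely. Each is the 250 bases before the annotated start on the gene's strand, chr10:128337477-128337726 on the plus strand for Cs and chrX:73786898-73787147 on the minus strand for Idh3g. Capitals mark matches to ACGTG or GCGTG, the core of the HIF response element, or to CCAAT, the core of the CCAAT box.
Cs: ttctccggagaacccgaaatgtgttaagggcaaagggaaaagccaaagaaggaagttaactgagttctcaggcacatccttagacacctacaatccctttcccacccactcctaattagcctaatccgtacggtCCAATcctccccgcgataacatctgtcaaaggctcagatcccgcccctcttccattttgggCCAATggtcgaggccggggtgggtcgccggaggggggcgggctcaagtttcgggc
Idh3g: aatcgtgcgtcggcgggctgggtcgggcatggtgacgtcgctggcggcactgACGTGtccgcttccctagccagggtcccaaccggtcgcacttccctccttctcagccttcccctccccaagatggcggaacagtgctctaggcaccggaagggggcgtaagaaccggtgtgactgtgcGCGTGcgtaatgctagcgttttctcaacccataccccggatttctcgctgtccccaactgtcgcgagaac

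The Cs window held CCAAT at 2 places and neither ACGTG nor GCGTG, while the Idh3g window held ACGTG and GCGTG once each and no CCAAT. Both strands were searched, and matches that overlapped were counted separately. ACGTG was found in 3 of the 9 windows, against 16.6% of all 32851 windows of this length in the table. GCGTG was in 5 of 9 (28.2% of all windows), ACGTG or GCGTG in 6 of 9 (38.6%), and CCAAT in 6 of 9 (33.8%). These are letter matches and not shown to be binding sites.

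The first question was whether any of the enzymes kept a ratio away from the array median within a condition. In constant hypoxia 1 of the 10 genes did: Cs, which encodes citrate synthase. Its ratios were 0.09 and 0.85 at 1 week on arrays A and B, 0.28 and -0.07 at 2 weeks, and 1.18 and 0.74 at 4 weeks. Thus 5 of 6 arrays were positive, with array B high at 1 week and both arrays high at 4 weeks. The mean was 0.51 ± 0.48 (SD, n = 6), and limma's moderated test against 0 gave an SE of 0.13 and an adjusted p of 0.0222. In that comparison 18.3% of all features passed, so the count of 1 in 10 is below the background. The other 9 genes had adjusted p values up to 0.924.

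The Cs value rests on a single probe, number 1549. A second Cs probe, 10309, had values on 12 arrays and was not kept by the filter. On the constant hypoxia arrays probe 10309 read 0.13 at 1 week (array A alone), -0.32 and -0.65 at 2 weeks, and -0.57 and -0.27 at 4 weeks, a mean of -0.34 ± 0.31 (SD, n = 5). The probes thus lay on opposite sides of the array median at 4 weeks. Over the 10 arrays with both values they had the same sign on 2 and a correlation of -0.65, given as a description. The call also depended on single arrays and on the processing: without constant hypoxia 1 week B the mean was 0.38 (adjusted p = 0.123), without constant hypoxia 2 weeks A 0.45 (0.106), without 2 weeks B 0.57 (0.0519) and without 4 weeks A 0.44 (0.0719). With the 3 arrays that stood apart all left out it was 0.44 (adjusted p = 0.0375), after removal of a running median along the probe numbers 0.23 (adjusted p = 0.301), and on the values as deposited -0.28 (adjusted p = 0.0488), the opposite direction. Where an array was left out, its partner was assumed to vary like the other groups.

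In normoxia Cs was positive on 4 of the 5 arrays with a value, at 0.37 and -0.28 at 1 week, 0.06 on array A at 2 weeks, and 0.75 and 0.62 at 4 weeks. In intermittent hypoxia its 4 values were -0.06 and -0.09 at 1 week, 0.01 on array A at 2 weeks and -0.58 on array A at 4 weeks. The constant and intermittent hypoxia ranges of probe 1549 overlapped only between -0.07 and 0.01. Probe 10309 had means of 0.04 ± 0.18 (SD, n = 3) in normoxia and 0.04 ± 0.20 (n = 4) in intermittent hypoxia. Neither of these conditions passed for Cs, where limma's means of the 3 durations were 0.26 in normoxia (adjusted p = 0.326) and -0.21 in intermittent hypoxia (adjusted p = 0.453). No member passed against 0 in normoxia or in intermittent hypoxia, where 3.53% and 5.79% of all features passed, and 2 of the 10 members in each had an unadjusted p under 0.05 (21.7% and 24.6% of all features).

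**Figure D1:**
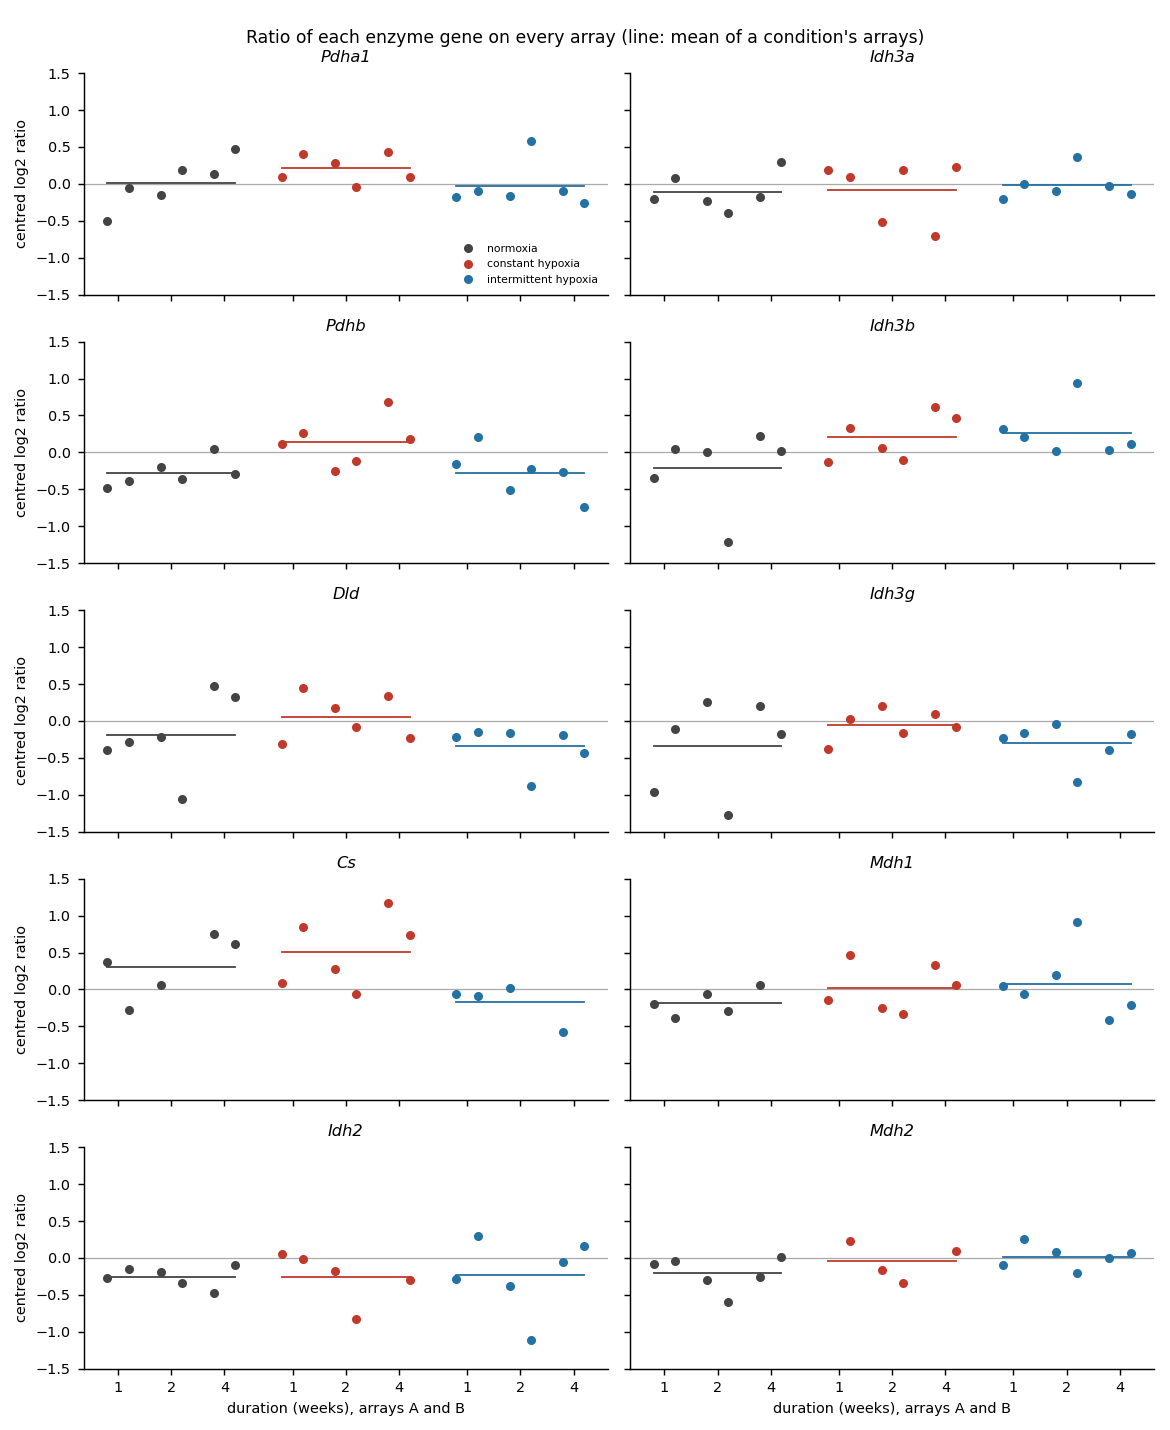
Centred log2 ratio of each of the 10 enzyme genes on every array, by condition (colour) and duration in weeks (arrays A left, B right); lines are the means of a condition's arrays and missing points are arrays without a value. Cs in constant hypoxia lies between -0.07 and 1.18, and most other genes scatter on both sides of 0.

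Of the pyruvate dehydrogenase subunits, Pdhb encodes the beta subunit of the first enzyme of the complex. Its normoxia ratios were -0.49 and -0.39 at 1 week, -0.20 and -0.36 at 2 weeks, and 0.04 and -0.29 at 4 weeks. Under constant hypoxia they were 0.11 and 0.26, then -0.25 and -0.12, and 0.68 and 0.18, and under intermittent hypoxia -0.16 and 0.21, then -0.51 and -0.23, and -0.27 and -0.74. Normoxia and intermittent hypoxia shared a mean of -0.28 (SD 0.18 and 0.32, n = 6 each), and constant hypoxia stood at 0.14 ± 0.33 (SD, n = 6). The constant hypoxia and normoxia ranges overlapped between -0.25 and 0.04.

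Pdha1 is the X-linked gene of the alpha subunit that the pyruvate dehydrogenase kinases phosphorylate. Its gene value had a median of 0.04 in normoxia (-0.50 to 0.47), 0.19 in constant hypoxia (-0.04 to 0.43) and -0.13 in intermittent hypoxia (-0.25 to 0.58). Its probes differed in normoxia. Probe 10724 read -0.70 and -0.25 at 1 week, -0.89 on array A at 2 weeks, and 0.37 and 0.52 at 4 weeks, whereas probe 4751 read -0.30 and 0.14, 0.60 and 0.19, and -0.10 and 0.42. On normoxia 2 weeks A they were thus on opposite sides of the median, and over 16 arrays their correlation was 0.27.

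Dld encodes dihydrolipoamide dehydrogenase, a subunit that the pyruvate dehydrogenase complex shares with the other 2-oxoacid dehydrogenases. It was negative on all 6 intermittent hypoxia arrays, at -0.22 and -0.15 at 1 week, -0.17 and -0.88 at 2 weeks, and -0.19 and -0.43 at 4 weeks (mean -0.34 ± 0.29, SD, n = 6). Limma gave an adjusted p of 0.137 for this mean, so it did not pass. It passed without intermittent hypoxia 2 weeks A, which leaves 1 array in that group, assumed to vary like the other groups, and after removal of the running median; 18.9% and 8.35% of all features passed in those fits. In normoxia its values were -0.40 and -0.28, then -0.22 and -1.06, and 0.47 and 0.33 at 4 weeks, and in constant hypoxia they lay between -0.32 and 0.44.

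Among the isocitrate dehydrogenases, Idh2 encodes the mitochondrial NADP-dependent enzyme. It was negative on 14 of 17 arrays and on all 6 normoxia arrays (-0.48 to -0.09), with means of -0.26 ± 0.14 (SD, n = 6) in normoxia, -0.25 ± 0.35 (n = 5) in constant hypoxia and -0.23 ± 0.50 (n = 6) in intermittent hypoxia. Its lowest values were on array B at 2 weeks of each hypoxia regime, -0.83 in constant and -1.12 in intermittent hypoxia. None of these means passed against 0, and the adjusted p for normoxia was 0.249 by limma.

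Idh3a, Idh3b and Idh3g encode the alpha, beta and gamma subunits of the NAD-dependent isocitrate dehydrogenase of the cycle, in which alpha is catalytic. Idh3b was positive on 14 of 18 arrays and on all 6 of intermittent hypoxia. Those 6 values were 0.32 and 0.21 at 1 week, 0.02 and 0.94 at 2 weeks, and 0.03 and 0.11 at 4 weeks (mean 0.27 ± 0.35, SD, n = 6, limma adjusted p = 0.271). In normoxia they were -0.35 and 0.04, 0.01 and -1.22, and 0.23 and 0.01. The value of -1.22, far below the other normoxia arrays, came from probe 6680 alone, because probe 1251 had no value on normoxia 2 weeks B.

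Idh3g, an X-linked gene, was negative on 13 of 18 arrays. The lowest values were -1.28 on normoxia 2 weeks B, -0.97 on normoxia 1 week A and -0.83 on intermittent hypoxia 2 weeks B, and the constant hypoxia values lay between -0.39 and 0.20. Its probes, 7516 and 11549, had the same sign on 15 of 18 arrays and a correlation of 0.85, which makes it the gene with the closest agreement among the 6 that had several probes. The condition means were -0.34 ± 0.63 in normoxia, -0.05 ± 0.21 in constant hypoxia and -0.31 ± 0.28 in intermittent hypoxia (SD, n = 6 each).

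Idh3a showed the reverse. Its gene value lay between -0.70 and 0.36 and averaged probes that disagreed: probe 15339 reached -1.97 on constant hypoxia 4 weeks A and -0.98 on constant hypoxia 2 weeks A, where probe 9642 read 0.57 and -0.06. The correlation of these probes over 18 arrays was -0.25. A further probe, 6212, had values on 13 arrays and read 0.78 and 0.61 at 4 weeks of constant hypoxia, on the side of probe 9642.

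Mdh1 and Mdh2 encode the cytosolic and mitochondrial malate dehydrogenases of the malate-aspartate shuttle. Mdh1 was measured by probe 661 of its 3 probes and reached 0.91 on intermittent hypoxia 2 weeks B, against -0.42 to 0.46 on the other 16 arrays. The probes that were not kept differed from it: probe 14201 was negative on all 13 arrays with a value (-0.58 to -0.05) and probe 14804 on 13 of 15. Mdh2 varied least of the 10 genes over all arrays, between -0.60 and 0.26 (SD 0.22, 16 arrays).

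**Figure D2:**
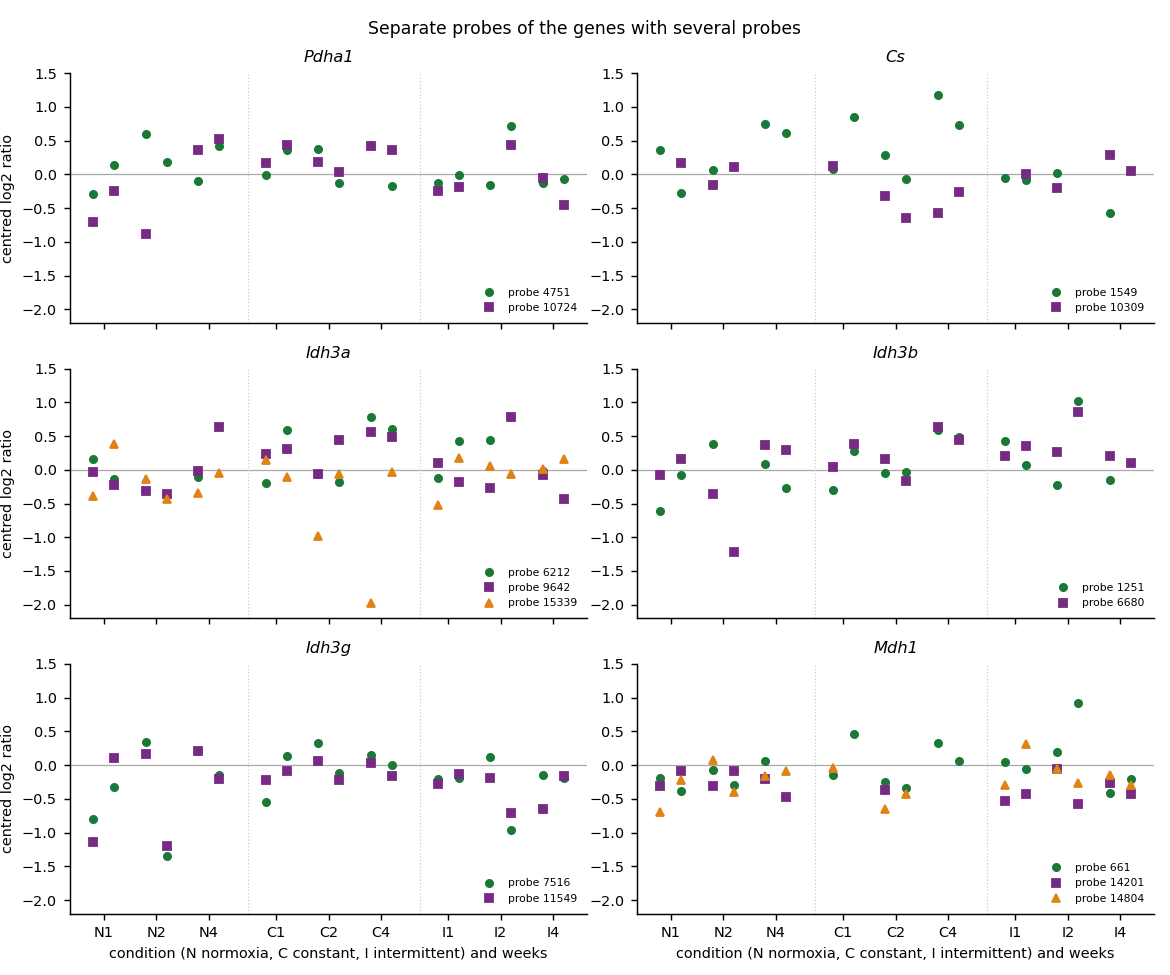
Centred log2 ratios of the separate probes (symbol and colour) of the 6 genes with several probes, on each array, by condition (N normoxia, C constant hypoxia, I intermittent hypoxia) and weeks. The Idh3g probes lie close together, while the Cs probes lie apart at 4 weeks of constant hypoxia and Idh3a probe 15339 falls to -1.97.

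Constant hypoxia was then compared with normoxia over the 3 durations. The difference was positive for 9 of the 10 enzymes, with a median of 0.24, whereas 43.1% of all 5751 features were positive, with a median of -0.04. No single member passed limma's test after Benjamini-Hochberg adjustment over all features, as for 0% of all features, and 1 member had an unadjusted p under 0.05 (7.53% of all features). The largest differences were those of Pdhb (0.42, SE 0.14, 95% interval 0.12 to 0.73, adjusted p = 0.647) and Idh3b (0.42, SE 0.21, interval -0.03 to 0.86, adjusted p = 0.653). They were followed by Idh3g (0.29), Dld and Cs (0.25 each), Mdh2 (0.23), Pdha1 (0.19) and Mdh1 (0.16), and the smallest were Idh3a (0.02) and Idh2 (-0.01). The intervals of all members except Pdhb included 0. The order of these values rests on single arrays: leaving out each array in turn moved Idh3b between 0.21 and 0.62, Idh3g between 0.03 and 0.55, Dld between 0.11 and 0.39, Cs between 0.12 and 0.37 and Mdh1 between 0.05 and 0.26. The lowest values of Idh3b, Idh3g and Dld came without normoxia 2 weeks B.

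The probes of a gene moved this comparison. Pdha1 was 0.57 by probe 10724 (SE 0.15, limma adjusted p = 0.619 over 6518 probes) and -0.02 by probe 4751. Idh3a was 0.37 by probe 9642 and -0.35 by probe 15339. Idh3b was 0.17 by probe 1251 and 0.38 by probe 6680, both below the gene's 0.42, since normoxia 2 weeks B had only the low reading of probe 6680. Cs and Mdh1 each rested on 1 kept probe, and their probes not kept went the other way. Cs probe 10309 had plain means of -0.34 in constant hypoxia (n = 5) and 0.04 in normoxia (n = 3). Mdh1 probe 14804 had -0.37 (n = 3) and -0.25 (n = 6), and probe 14201 -0.37 (1 array) and -0.24 (n = 6). Idh3a probe 6212, also not kept, had 0.26 (n = 6) and -0.03 (n = 3). The durations behind these means differ.

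With the 3 arrays that stood apart left out, 9 of 10 differences were positive, with a median of 0.16, and Idh3b was 0.19, Dld 0.02 and Idh3g 0.01. Leaving out each of the 18 arrays in turn left 8 to 10 genes with a value. Medians then ran from 0.12 without constant hypoxia 1 week B (9 of 9 positive) to 0.32 without constant hypoxia 4 weeks B (7 of 8 positive). In the latter case Pdhb passed (0.51, adjusted p = 0.039), as did 10.6% of all features, where array A, left as the only one at that time, was assumed to vary like the others. Without centring, the median feature differed by -0.81, and all 10 members lay between -0.75 and -0.35, above that median. The direction of the members thus flips with the centring, which moves all features of an array alike. The 3 measured proximal tubule markers were also positive in this comparison (0.17 to 0.28, median 0.24), with a mean ratio per array from -0.68 to 0.07 in normoxia, -0.38 to 0.37 in constant hypoxia and -0.50 to 0.11 in intermittent hypoxia. The 2 erythroid markers, Hbb-b1 and Slc4a1, were negative (-0.90 and -0.11), with a mean ratio from -0.61 to 0.14 in normoxia, -2.06 to -0.05 in constant hypoxia and -1.20 to 0.31 in intermittent hypoxia. The adrenal cortex marker Hsd3b1 ranged from -1.99 to 1.10 in normoxia, -3.00 to 1.30 in constant hypoxia and -0.49 to 1.16 in intermittent hypoxia. Their part in the result was not tested.

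Within single durations the members were positive in 10 of 10 cases at 1 week (median 0.38, all features -0.02), 8 of 10 at 2 weeks (median 0.12) and 5 of 10 at 4 weeks (median 0.06). None passed limma's test at any duration, where 0%, 0.0174% and 0.0348% of all features passed. The number with an unadjusted p under 0.05 was 1, 0 and 1 of 10 (2.47%, 10.2% and 6.9% of all features), in both cases Pdhb (0.62 at 1 week, SE 0.25, and 0.56 at 4 weeks, SE 0.25, or 0.31 without constant hypoxia 4 weeks A). At 1 week the median was 0.15 over the 9 genes with a value without constant hypoxia 1 week B, and 0.62 over 10 genes without constant hypoxia 1 week A, so it rested largely on array B. At 2 weeks the highest differences were those of Dld (0.69), Idh3b (0.58) and Idh3g (0.52), which were 0.27, -0.03 and -0.24 without the 3 arrays that stood apart.

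**Figure D3:**
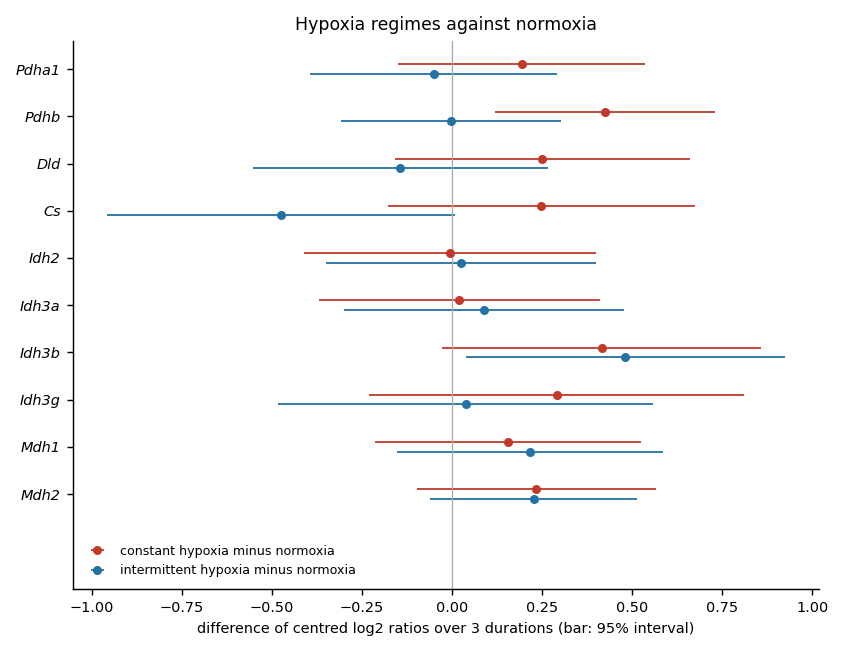
Difference of centred log2 ratios between each hypoxia regime and normoxia over 3 durations, for each enzyme gene, with 95% intervals from limma. For constant hypoxia 9 of 10 points lie to the right of 0, and only the interval of Pdhb excludes 0; for intermittent hypoxia the points lie on both sides and only the interval of Idh3b excludes 0.

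Intermittent hypoxia against normoxia gave no common direction. The difference was positive for 6 of the 10 enzymes and negative for 4, with a median of 0.03 against 0.01 for all features. No member passed (limma, 0% of all features), and 1 had an unadjusted p under 0.05 (4.12% of all features). Idh3b (0.48, SE 0.21, 95% interval 0.04 to 0.92, adjusted p = 0.995) and Cs (-0.48, SE 0.22, interval -0.96 to 0.01, adjusted p = 0.995) lay farthest from 0 on either side. The Cs value is that of probe 1549, while probe 10309, which was not kept, had a mean of 0.04 in both conditions. Idh3b was 0.18 by probe 1251 and 0.47 by probe 6680, and Pdhb differed by -0.003 from normoxia, with an interval from -0.31 to 0.30. Idh3b moved between 0.28 and 0.69 when single arrays were left out, and was 0.12 (SE 0.15) without the 3 arrays that stood apart. Without those arrays 4 of 10 differences were positive, with a median of -0.05.

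At 2 weeks Idh3b differed by 1.08 (SE 0.36, limma adjusted p = 0.225) and Mdh1 by 0.74 (SE 0.27, adjusted p = 0.271). Intermittent hypoxia 2 weeks B was high for both genes (0.94 and 0.91), and normoxia 2 weeks B was low for Idh3b (-1.22). Without the 3 arrays that stood apart the differences were 0.01 for Idh3b (SE 0.31) and 0.26 for Mdh1 (SE 0.33), each then between 1 array and 1 array, assumed to vary like the other groups. When intermittent hypoxia 2 weeks A was left out instead, so that array B stood alone, both genes passed, as did 12.8% of all features. At 4 weeks the difference was negative for 8 of 10 enzymes, with a median of -0.34 against 0.01 for all features. Cs was lowest (-1.26, SE 0.38, adjusted p = 0.487), with 1 intermittent hypoxia array against 2 of normoxia. Cs probe 10309 read 0.29 and 0.05 at 4 weeks of intermittent hypoxia and had no value at 4 weeks of normoxia. At 1 week 8 of 10 enzymes were positive, with a median of 0.19. No member passed at 1, 2 or 4 weeks, where 0%, 0.0869% and 0% of all features passed, and 0, 2 and 1 of the 10 members had an unadjusted p under 0.05 (2.9%, 12.4% and 8.73% of all features).

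The regimes were also compared with each other; both comparisons with normoxia share the normoxia arrays, and this one does not use them. Intermittent minus constant hypoxia was negative for 6 of 10 enzymes, with a median of -0.13 against 0.06 for all features. With single arrays left out, this median was lowest without constant hypoxia 4 weeks B (-0.29, 8 genes with a value). It was highest without intermittent hypoxia 4 weeks A (0.004, 9 genes). The latter set lacks Cs, the lowest member (-0.72), which then had no intermittent hypoxia array at 4 weeks. The medians are thus over different genes, and what the array itself adds was not tested. Without the 3 arrays that stood apart 8 of 10 differences were negative, with a median of -0.13, and Cs was -0.65 and Pdhb -0.39. Cs (-0.72, SE 0.21, limma adjusted p = 0.389) and Pdhb (-0.43, SE 0.14, adjusted p = 0.393) were the 2 members with an unadjusted p under 0.05 (11.4% of all features). The Cs value is that of probe 1549. Probe 10309, which was not kept, went the other way, with means of 0.04 in intermittent (n = 4) and -0.34 in constant hypoxia (n = 5). None of the 10 members passed, and 0.0348% of all features did. Without constant hypoxia 4 weeks B both Cs and Pdhb passed, with array A alone in that group and 12.6% of all features passing. On the values as deposited all 10 differences were positive, at a median of 0.61 below the 0.80 of the median feature.

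Age was compared as 4 weeks minus 1 week within each condition. In normoxia the difference was positive for 8 of 10 enzymes, with a median of 0.34 against -0.02 for all features; on the values as deposited all 10 were positive, but so was the median feature (0.18), above which 8 of 10 lay. After removal of the running median all 10 were positive. Dld (0.74, SE 0.33), Cs (0.64, SE 0.31), Pdha1 (0.58, SE 0.28) and Idh3g (0.56, SE 0.42) were highest, and Idh2 (-0.07) and Mdh2 (-0.06) were the negative ones. For Dld, both 4-week normoxia arrays (0.47 and 0.33) lay above all other normoxia arrays. Idh3g had -0.97 and -0.11 at 1 week and 0.21 and -0.17 at 4 weeks, so its difference rested on array A of 1 week. Without that array the median over the 10 genes was 0.19.

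In constant hypoxia 6 of 10 were positive with a median of 0.03, which ran from -0.14 without 1 week A to 0.34 without 1 week B (9 genes with a value). In intermittent hypoxia 2 of 10 were positive with a median of -0.11, which ran from -0.19 without 1 week A (0 of 10 positive) to -0.07 without 1 week B (4 of 10). The lowest in intermittent hypoxia were Pdhb (-0.53, SE 0.25) and Cs (-0.51, SE 0.38, with 1 array at 4 weeks). No member passed in any of these 3 comparisons, and neither did any feature (0% in normoxia, 0% in constant and 0% in intermittent hypoxia by limma). The members with an unadjusted p under 0.05 numbered 1, 0 and 1 (8.54%, 10.2% and 2.66% of all features). The interaction itself, the change from 1 to 4 weeks in intermittent hypoxia minus that in normoxia, was negative for 8 of 10 members (median -0.63, all features 0.01) and largest for Cs (-1.14, SE 0.49, adjusted p = 0.578), Dld (-0.87, SE 0.47, adjusted p = 0.64) and Pdhb (-0.84, SE 0.35, adjusted p = 0.554). The Cs values here rested on probe 1549 alone. For constant hypoxia the interaction was negative for 9 of 10 (median -0.29). Neither interaction passed for any member or any feature (0% each), and 2 and 0 members had an unadjusted p under 0.05 (8.35% and 3.48% of all features).

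**Figure D4:**
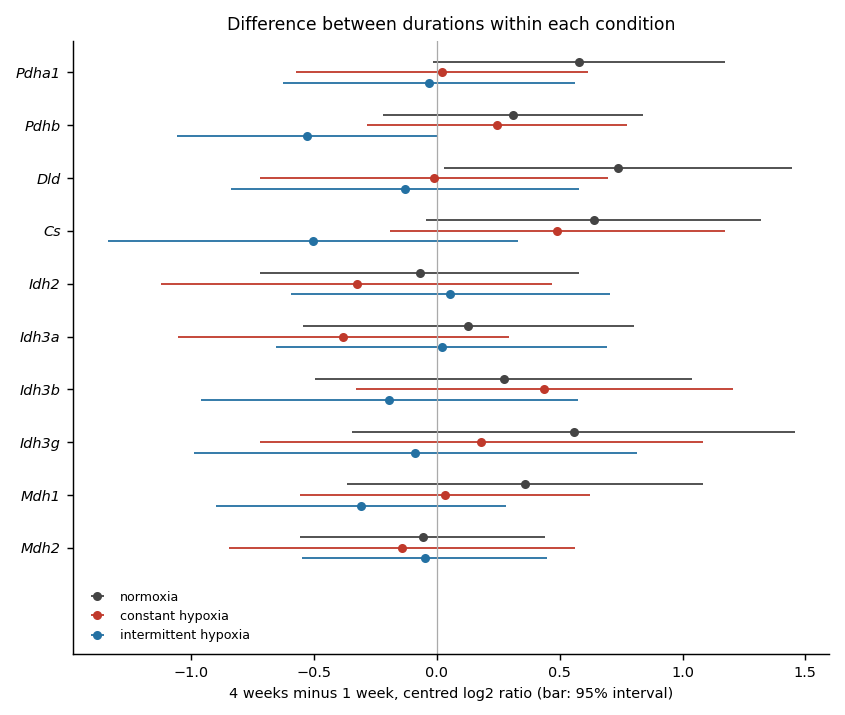
Change of the centred log2 ratio from 1 to 4 weeks for each enzyme gene in normoxia, constant hypoxia and intermittent hypoxia, with 95% intervals from limma. Normoxia is positive for 8 of 10 genes and intermittent hypoxia negative for 8 of 10, and the intervals include 0 except for Dld in normoxia and Pdhb in intermittent hypoxia.

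Genes of subunits of 1 enzyme, and the 2 malate dehydrogenase genes, were compared with each other on the same arrays. The permutations treat the arrays as exchangeable, although they form 9 groups and differ in spread. How high r runs for other pairs of genes was not looked at. Pdha1 and Pdhb had the same sign on 13 of 18 arrays (Pearson r = 0.47, permutation p = 0.0477, Spearman rho = 0.42, permutation p = 0.0864). After Benjamini-Hochberg adjustment over the 5 pairs the Pearson p was 0.134 and the Spearman p 0.416, so the relation did not pass with this centring. Without the 2 arrays farthest from the median of Pdha1 r was 0.52, on the 6 constant hypoxia arrays 0.57 (exact permutation p = 0.236) and on the other 12 arrays 0.27 (permutation p = 0.389).

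The beta and gamma subunit genes Idh3b and Idh3g had r = 0.48 over 18 arrays (permutation p = 0.0535, adjusted p = 0.134, rho = 0.34, permutation p = 0.167, adjusted p = 0.416), 0.54 on the constant hypoxia arrays and 0.44 on the others. Their same-signed lows on normoxia 1 week A and 2 weeks B stood against opposite signs on intermittent hypoxia 2 weeks B (0.94 and -0.83). Without the 2 arrays farthest from the median of Idh3b r was 0.56. The catalytic subunit gene Idh3a had lower values over all arrays, with r = 0.25 to Idh3b (permutation p = 0.32, adjusted p = 0.533, rho = 0.14, permutation p = 0.569) and -0.12 to Idh3g (permutation p = 0.638, adjusted p = 0.638, rho = -0.24, permutation p = 0.333). With Idh3b it had r = 0.67 on the 12 arrays outside constant hypoxia (permutation p = 0.0183, not adjusted) and -0.41 within it, where probe 15339 was low on 2 arrays. Without the 2 farthest arrays of Idh3a the correlations were 0.60 with Idh3b and 0.15 with Idh3g. Mdh1 and Mdh2 had r = 0.21 over 15 arrays (permutation p = 0.451, adjusted p = 0.564, rho = 0.28, permutation p = 0.321), 0.30 without the 2 farthest arrays and -0.04 on the 11 arrays outside constant hypoxia, while constant hypoxia had 4 arrays with both values, too few for a correlation.

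**Figure D5:**
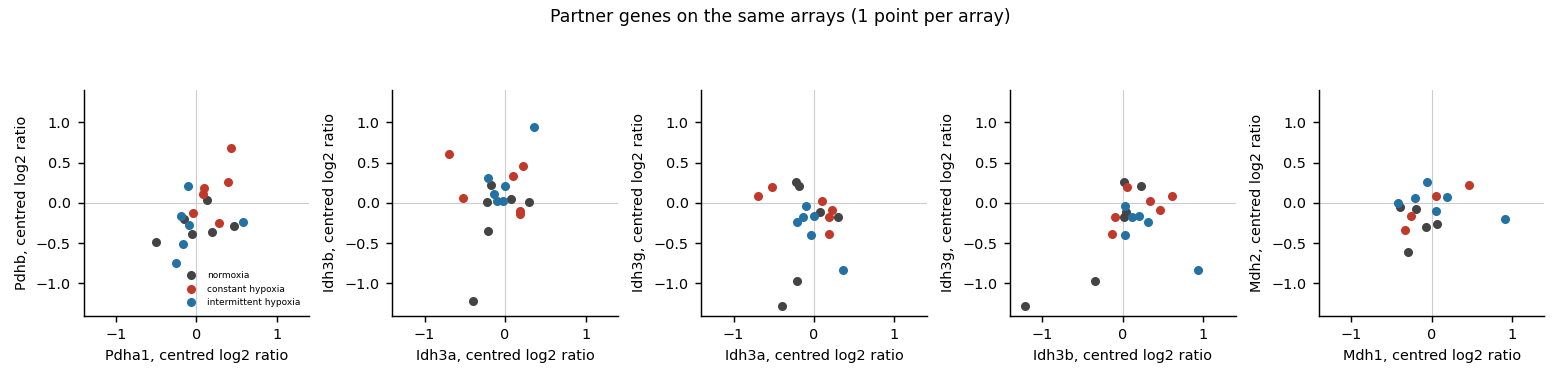
Centred log2 ratios of partner genes against each other, 1 point per array, coloured by condition, for the 5 pairs of Pdha1, Pdhb, the 3 Idh3 subunit genes and the 2 malate dehydrogenases. The Pdha1 and Pdhb points share a sign on 13 of 18 arrays, and the Idh3a panels show no common line.

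For each enzyme the gene with the most similar ratios over at least 15 arrays was looked up, as a description. Each r is the highest found among the 4109 genes, and how high it runs for genes outside the list was not looked at. Mdh1 was most like Pdhx, the gene of the component that binds dihydrolipoamide dehydrogenase to the pyruvate dehydrogenase complex (r = 0.87, 17 arrays). Pdha1 was most like Acadm, which encodes medium-chain acyl-CoA dehydrogenase (0.88, 15 arrays). Idh3g was most like Vdac3, a channel of the outer mitochondrial membrane (0.89, 18 arrays), and Dld most like Naxe, an epimerase that repairs hydrated NADH and NADPH (0.91, 17 arrays). The others were Snx6 for Idh3a (0.89), Kansl2 for Idh3b (0.90), Tulp3 for Mdh2 (0.84), 2610001J05Rik for Idh2 (0.82), Arf1 for Cs (0.81) and Rasl2-9 for Pdhb (0.81).

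Other genes of the pathway were taken from a list of 40, of which 20 were measured. In constant hypoxia minus normoxia 10 of these 20 were positive and 10 negative (median -0.01), and none passed in either direction. The smallest p values belonged to Sdhd (0.56, SE 0.16, limma adjusted p = 0.647) and Pdk1 (0.41, SE 0.20, adjusted p = 0.647) on the positive side. On the negative side they belonged to Sdha (-0.52, SE 0.25, adjusted p = 0.647) and Got2 (-0.45, SE 0.33, adjusted p = 0.722). Against 0, Sdha passed in constant hypoxia (-0.76, SE 0.18, limma adjusted p = 0.013), the only gene of the list to pass in any condition. In that comparison 18.3% of all features passed, so 1 of the 20 is below the background. Sdhd and Sdha encode subunits of succinate dehydrogenase, Pdk1 the kinase that inactivates pyruvate dehydrogenase, and Got2 the mitochondrial aspartate aminotransferase. The pattern of the 10 enzymes, 9 positive, was thus not seen in this list, and the difference between the lists was not tested.

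In intermittent hypoxia minus normoxia 11 of the 20 were positive (median 0.04) and none passed. Pdk1 (0.59, SE 0.20, limma adjusted p = 0.995) and Sdhd (0.35, SE 0.16) led the positive genes, and Me1, the cytosolic malic enzyme (-0.44, SE 0.21), and Got2 (-0.38, SE 0.28) the negative ones. As for the members, a rise shared by both animals of an array cancels in these ratios, so they do not show induction by hypoxia. Glycolytic enzymes, 7 measured of 21 listed, were positive in 6 cases in constant hypoxia (median 0.21) and in 6 cases in intermittent hypoxia (median 0.10). None of the 7 passed in either comparison. All 7 were negative from 1 to 4 weeks in intermittent hypoxia (median -0.22), the direction of 8 of the 10 enzymes described here, and none passed there.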

How the data were processed

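The values the authors deposited were log2 ratios of the Cy5 and Cy3 channels, 1 for each probe on an array. How spots were corrected, filtered and normalized, and which channel is the numerator, is not stated in the sources used here. Base 2 was inferred from the numbers: 25.2% to 80.0% of 500 values per array were ratios of whole numbers (denominator up to 600, relative tolerance 3e-09) in base 2, against at most 0.4% in base e and 1.4% in base 10. No intensities were used, so the signal behind a value is unknown, and 2 arrays per group limit the precision. The platform annotation gave 1 gene symbol for 9604 of the 16128 probes, several for 213 and none for 6311; 6518 (40.4%) were kept, and probes of 1 symbol were averaged to 4109 genes beside 1642 other probes. Arrays were grouped by title. limma 3.58.1 in R 4.3.3 fitted 9 group means (lmFit, eBayes, prior degrees of freedom 5.55), with Benjamini-Hochberg adjustment over 5751 features at a threshold of 0.05. Condition effects average the 3 durations. Tests were two-sided and checked on simulated data. The simulated arrays had equal spread, and the limma check used shifts larger than every member's difference between constant hypoxia and normoxia. How the tests behave with arrays of unequal spread or smaller differences was not looked at. Correlations between partner genes used 100000 permutations, or exact enumeration for 6 arrays (scipy 1.17.1). Alternatives were the centring, a running median over 201 probe numbers, the filter, weights, moderation, probes singly, a replicate block and leaving out arrays. The omission of 3 arrays together, the interactions and the alternatives for Cs in constant hypoxia were added after the values were seen. The named genes were the 10 members, the 2 genes of the pathway list with the smallest p in each direction, and the most similar gene of each member. Members and lists were chosen with earlier results of these data known.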

Additional observations from a re-analysis of the deposited data

Results flagged for a closer look

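A value was looked at again where the highest or lowest array of a condition stood far from the nearest other array, relative to the range of that condition. Of 68 sets of arrays looked at, 8 met this rule. The rule's rate of about 1 in 20 holds for separate sets of normal values with equal spread. Here genes and their own probes were both looked at, and the arrays differ in spread, so 8 of 68 cannot be set against that rate. Intermittent hypoxia 2 weeks B, the array with the second widest spread of ratios, accounted for 6 of the 8. For Pdha1 it read 0.58 against -0.25 to -0.09 on the other intermittent hypoxia arrays, and Pdha1 probe 4751 read 0.72 there. For Idh3b it read 0.94 against 0.02 to 0.32, with 0.86 by probe 6680. For Idh3a it read 0.36 against at most -0.001, and Idh3g probe 7516 read -0.96, the only one of the 6 on the low side. Apart from this array, Idh3a probe 9642 read 0.64 on normoxia 4 weeks B, where the next highest was -0.01, and Idh3a probe 15339 read -0.52 on intermittent hypoxia 1 week A, where the next lowest was -0.06.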

How the results depend on the processing

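On the values as deposited, which keep the low medians of the constant hypoxia arrays, 8 members passed in constant hypoxia minus normoxia, 7 in intermittent minus constant hypoxia, 11 in constant hypoxia minus normoxia summed over the single durations, and 10 in the constant hypoxia ratio. Of all features there, 96.9% passed in the first of these, 93.7% in the second, 77.7%, 0.0174% and 91.2% at 1, 2 and 4 weeks, and 98.9% in the ratio, so the members' counts say nothing particular to them. The differences from normoxia were then -0.58 for Pdha1, -0.35 for Pdhb, -0.52 for Dld, -0.53 for Cs, -0.75 for Idh3a, -0.35 for Idh3b, -0.48 for Idh3g, -0.63 for Mdh1 and -0.52 for Mdh2, and the Cs ratio was -0.28. In the constant hypoxia ratio 0 members passed with the running median removed, 0 with probes on all 18 arrays, where Cs is not among the genes tested, and 0 without moderation, and with the running median removed 1, Dld, passed in the intermittent hypoxia ratio. The causes of the other changes were not tested. Without moderation no member passed in any comparison counted, and the interactions were not among those counted in the alternative fits. These counts of 0 are given without the share of all features in the same fits, so they are not a result about the members.

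Leaving out each array in turn gave 0 to 1 passing members in constant hypoxia minus normoxia, 0 to 2 in intermittent minus constant hypoxia, 0 to 2 in intermittent hypoxia minus normoxia at single durations, and 0 to 1 in each of the 3 ratios (Idh3g in normoxia, without normoxia 2 weeks A, where 3.77% of all features passed). It reversed values near 0: the ranges were -0.11 to 0.10 for Idh2 and -0.13 to 0.17 for Idh3a in constant hypoxia minus normoxia. In intermittent hypoxia minus normoxia they were -0.18 to 0.073 for Pdha1, -0.081 to 0.076 for Pdhb, -0.10 to 0.15 for Idh2 and -0.22 to 0.29 for Idh3g.

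Other reversals in constant hypoxia minus normoxia were Pdha1 at -0.020 with probes on all arrays and by probe 4751 (-0.019), Idh3a at -0.35 by probe 15339, and Idh2 at 0.015 when centred on all probes, 0.11 with the running median removed and 0.00025 with the array letter as a replicate block. In intermittent hypoxia minus normoxia they were Pdha1 at 0.30 by probe 10724, Pdhb at 0.15 with the running median removed and 0.0074 with probes on all arrays, Idh2 at -0.00088 as deposited, Idh3a at -0.018 and Idh3g at -0.085 without the 3 arrays that stood apart, and Idh3g at -0.0065 by probe 11549. The correlation of Idh3a with Idh3g was 0.518 as deposited and 0.108 with the running median removed. The Pearson correlations were also computed as deposited, centred on all probes and with the running median removed. Of these 3 settings, Pdha1 with Pdhb passed after adjustment in 2, Idh3a with Idh3b in 2 and Idh3b with Idh3g in 1. Both genes of a pair share the array medians that the deposited values keep. The letters A and B are not said to mark a shared litter, day or slide; with them as a replicate block Cs kept an adjusted p of 0.0257 in the constant hypoxia ratio, and no other call changed.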
